A study of Mus musculus with 6 samples.

Results

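The 10 genes described here encode actin-binding and contractile proteins of non-muscle cells that are known targets of the MRTF-SRF pathway, and they were chosen by name: Vcl, Flna, Myh9, Zyx, Cfl1, Lima1, Tpm4, Wdr1, Pfn1 and Tagln2. All 10 were present among the 23284 genes of each library, and all 10 passed the filter that kept 11703 genes for testing. RNA was measured in C1498-EGFP cells, a single GFP-transduced clone of a mouse acute myeloid leukemia (AML) line, which had been injected intravenously into female wild-type C57BL/6 J mice (8 to 10 weeks of age). On day 21 the GFP+ CD49b+ cells of femur, tibia and pelvis marrow were sorted from 3 cytarabine-treated mice and from 3 control mice, which the sample records call PBS-treated or untreated. The methods give 20 μg of cytarabine by intraperitoneal injection on days 19 and 20 for the imaged mice, without naming the sequenced ones, and another dose appears elsewhere in the study. There was 1 library per mouse, and libraries are called cytarabine or control with their number. The hosts keep their own blood, stroma and tissues, and the line is 1 clone, so the 6 libraries are 6 mice carrying the same leukemia.

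SRF is a transcription factor that binds a short DNA element, the CArG box. Its coactivators MRTFA and MRTFB are held in the cytoplasm by monomeric actin and enter the nucleus when actin assembles into filaments. The genes then switched on encode actin itself and the proteins that cap, cross-link, pull on or recycle filaments, so that the pathway adjusts the cytoskeleton to its own state. The comparison addresses whether such targets differ in leukemia cells that remain after cytarabine.

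The promoters of the 10 genes were read from RefSeq on GRCm38.p6 (250 bases before to 50 bases after each annotated start), and 1 window was found for each. A complete CArG box was present in 2 of the 10 windows, those of Vcl and Lima1, in 1.63% of all 32851 promoters of the same length and in 1.41% of the promoters of tested genes. The 250 bases before both starts are shown because these genes also varied the most between libraries, with the CArG box in capitals. The box is symmetric, so a single search covered both strands. Vcl lies on the plus strand, with the window at chr14:20929148-20929397, and Lima1 on the minus strand, with the window at chr15:99820150-99820399.
Vcl: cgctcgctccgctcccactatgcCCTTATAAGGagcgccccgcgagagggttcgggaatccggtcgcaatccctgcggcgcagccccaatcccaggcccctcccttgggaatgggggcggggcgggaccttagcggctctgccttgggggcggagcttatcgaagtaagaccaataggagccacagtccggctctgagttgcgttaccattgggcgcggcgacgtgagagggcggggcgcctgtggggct
Lima1: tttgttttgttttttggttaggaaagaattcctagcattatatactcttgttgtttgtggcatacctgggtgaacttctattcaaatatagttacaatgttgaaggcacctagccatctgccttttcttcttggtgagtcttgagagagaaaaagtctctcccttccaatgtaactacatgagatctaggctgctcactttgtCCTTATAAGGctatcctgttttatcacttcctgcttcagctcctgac
Both windows carried the same 10 letters, CCTTATAAGG, beginning 227 bases before the start of Vcl and 47 bases before the start of Lima1. With 1 letter allowed to differ, Wdr1 (CTATATATGG), Flna (CATTTAAAGG) and Cfl1 (CGTTTTTTGG) also matched, which brought the count to 5 of 10, against 21.1% of all promoters and 17.2% of those of tested genes. Among these 5 genes, the windows of Lima1, Flna and Wdr1 belong to starts inside the gene as GENCODE draws it. Those genes span 99778470 to 99875456 on chromosome 15 (Lima1), 74223461 to 74249820 on X (Flna) and 38526813 to 38563221 on chromosome 5 (Wdr1). The bases before the starts of Flna and Wdr1 were 74246535 to 74246784 and 38561700 to 38561949. The windows of Zyx, Tpm4, Pfn1, Myh9 and Tagln2 held no such match within these letters. The GC box GGGCGG, searched on both strands, was in 9 of the 10 windows, all except that of Lima1, in 35.7% of all promoters and in 61.6% of the promoters of tested genes. Lima1 also had the lowest GC content of the 10 windows, 42.3%, where Tpm4 had 76.0%.

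The values are FPKM (mapped fragments scaled to exon length and library size), so genes can be compared per length. The depth inferred from the steps between low values was 11510000 to 18900000 reads per library. The gate gene Itga2, which encodes CD49b, was at 7.79 to 8.11 FPKM in treated mice versus 10.6 to 13.3 FPKM without (log2 fold change -0.57, adjusted p = 0.136 from limma), and the leukocyte gene Ptprc was at 284 to 386 FPKM. The libraries were not alike in other respects. The summed level of 17 colon epithelium markers was 424, 5658 and 5948 FPKM in cytarabine 1, 2 and 3 and 2618, 35.1 and 27.0 FPKM in control 1, 2 and 3. The 12 smooth muscle genes, also targets of the pathway, summed to 142, 1271 and 1435 FPKM in treated mice versus 1183, 205 and 28.9 in control mice. Cytarabine 2, cytarabine 3 and control 1 were therefore high in both. The source of these transcripts was not tested. In bulk RNA, fewer cells of a type and less RNA per cell cannot be told apart. The larger differences are also given within the 3 libraries of higher and the 3 of lower colon level. Such differences do not hold colon level constant. Among the lower libraries it was 424 FPKM in cytarabine 1 against 35.1 and 27.0 in control 2 and 3. Among the higher ones it was 5658 and 5948 FPKM in cytarabine 2 and 3 against 2618 in control 1.

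Profilin and cofilin transcripts were the most abundant of the group. Pfn1 encodes profilin 1, which delivers actin monomers to growing filament ends, and was at 1289.8, 1226 and 1144 FPKM in treated mice versus 1288, 1275 and 1264 in control mice. The groups overlapped, and Pfn1 ranked between 78 and 88 among the 11703 genes in every library. Cfl1 encodes cofilin 1, which severs and depolymerizes filaments, and was at 1189, 1031 and 1024 FPKM in treated mice versus 1050.2, 1132 and 1115 in control mice. Its ranks ran from 85 to 100. The log2 fold change was -0.07 for Pfn1 (standard error 0.06, adjusted p = 0.561 from limma) and -0.03 for Cfl1 (standard error 0.08, adjusted p = 0.865 from limma). The 95% interval on the log2 scale ran from -0.22 to 0.09 for Pfn1 and from -0.22 to 0.17 for Cfl1. These intervals leave room for a small change in either direction and for none as large as the fitted log2 fold change of Lima1, 1.20. The 95% interval of Lima1 itself ran from 0.18 to 2.22.

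Tagln2 was the only member whose 3 treated libraries all lay below the 3 controls. It encodes transgelin 2, an actin-bundling relative of the smooth muscle protein transgelin that is found in leukocytes. It was at 437, 363 and 388 FPKM in treated mice versus 456, 518 and 449.9 in control mice, or 396 ± 37.6 against 475 ± 37.8 FPKM (SD, n = 3 mice each). The log2 fold change was -0.26 (standard error 0.10, unadjusted p = 0.034, adjusted p = 0.252 from limma), a fold of 0.83. Within the libraries of lower colon level the difference was -0.14 on the log2 scale, and within those of higher level it was -0.28. Once scores for colon and heart transcripts entered the fit, the log2 fold change was 0.04 (unadjusted p = 0.811, adjusted p = 0.999 from limma). With both scores and 6 libraries that fit leaves few degrees of freedom, and 4.75% of all genes had an unadjusted p under 0.05 in it.

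Wdr1 was the only member whose 3 treated libraries all lay above the 3 controls. It encodes the actin-interacting protein that works with cofilin to disassemble filaments. It was at 158, 142 and 169.9 FPKM in treated mice versus 137, 138 and 135 in control mice. The controls lay within a narrow band (136 ± 1.47 FPKM, SD, n = 3), and the cytarabine libraries spread more widely above it (157 ± 14.0 FPKM, SD, n = 3). The log2 fold change was 0.19 (standard error 0.08, unadjusted p = 0.046, adjusted p = 0.279 from limma), a fold of 1.14. The difference was 0.21 within the libraries of lower colon level and 0.18 within those of higher level, on the log2 scale. With colon and heart scores as covariates it was 0.43 (unadjusted p = 0.022, adjusted p = 0.997 from limma), in a fit where 4.75% of all genes had an unadjusted p under 0.05. The ratio of Cfl1 to Wdr1 FPKM was 7.55, 7.25 and 6.03 with cytarabine and 7.67, 8.23 and 8.28 in controls. The groups did not overlap, but the ratio holds the same Wdr1 values and is not a separate result. The two-sided exact permutation test gave p = 0.1, the smallest value possible with 3 mice against 3 (0.3 after Benjamini-Hochberg adjustment over 3 such measures). The ratio of Pfn1 to Cfl1 lay between 1.08 and 1.23 in all 6 libraries (exact permutation p = 0.5).

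**Figure D1:**
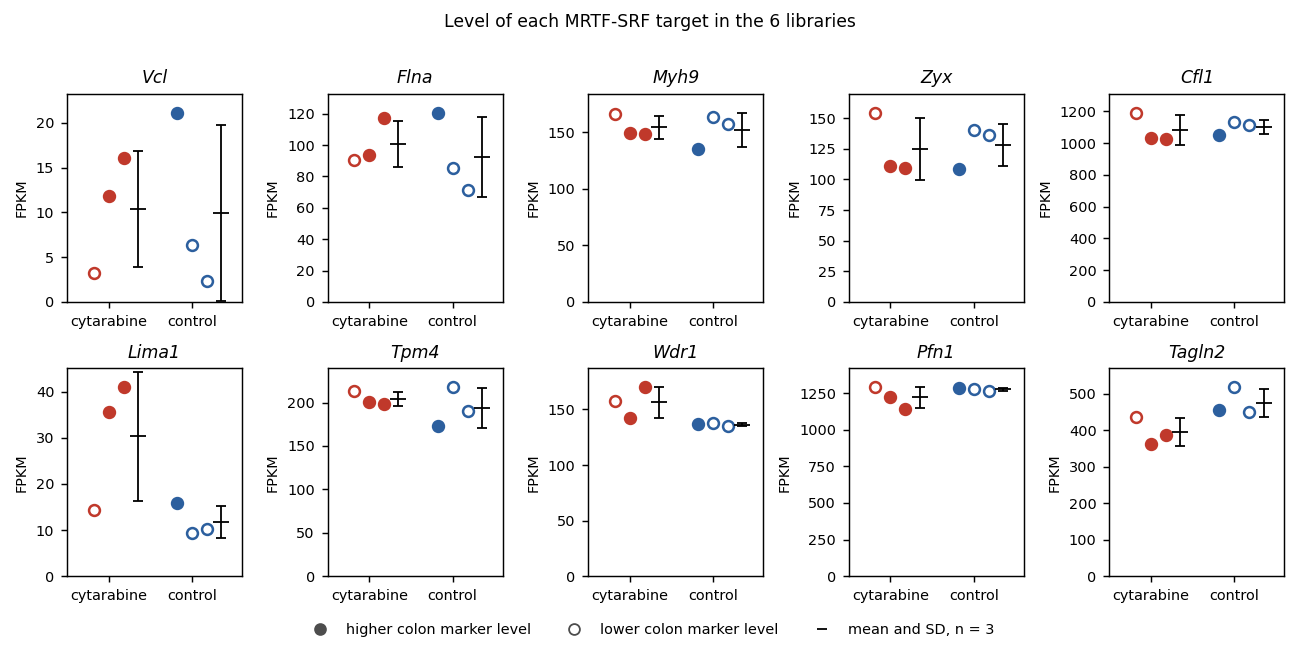
FPKM of the 10 members in each library (vertical axes start at 0), by group, with the mean and SD of 3 mice beside the points. Filled points are the 3 libraries of higher colon marker level. Wdr1 and Tagln2 are the panels in which the groups do not overlap, while in Vcl, Flna, Lima1, Myh9, Zyx and Cfl1 the filled and open points do not overlap.

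Lima1 showed the largest difference of the group. It encodes LIM domain and actin-binding protein 1 (EPLIN), which bundles filaments and slows their depolymerization. It was at 14.5, 35.5 and 41.0 FPKM in treated mice versus 15.8, 9.41 and 10.2 in control mice. Cytarabine 2 and 3 stood above the other 4 libraries, and cytarabine 1 was below control 1, so the groups overlapped. The log2 fold change was 1.20 (standard error 0.42, unadjusted p = 0.029, adjusted p = 0.237 from limma), a fold of 2.29 with a 95% interval from 1.13 to 4.66. The difference was 0.52 within the libraries of lower colon level and 1.22 within those of higher level, on the log2 scale. With the smooth muscle score as a covariate it was 0.72 (unadjusted p = 0.028, adjusted p = 0.194 from limma). With colon and heart scores it was 0.53 (unadjusted p = 0.37, adjusted p = 0.999 from limma), in the fit where 4.75% of all genes had an unadjusted p under 0.05.

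Vcl varied most between libraries, and its groups overlapped widely. It encodes vinculin, which links integrin adhesions and cadherin junctions to actin. It was at 3.29, 11.8 and 16.1 FPKM in treated mice versus 21.1, 6.34 and 2.39 in control mice, an 8.83-fold range. The highest and the lowest library were both controls. The log2 fold change of 0.26 had a standard error of 0.82 (adjusted p = 0.872 from limma), and its 95% interval, from -1.77 to 2.28, leaves room for a change of several fold in either direction. Vcl was higher in the 3 libraries of higher colon level than in the others. In the same libraries the α-actinin gene Actn1 was at 10.5, 15.1 and 26.0 FPKM, against 3.11 to 8.22 FPKM in the others. The difference between the groups was negative within either set of libraries, -0.22 and -0.58 on the log2 scale. With the smooth muscle score as a covariate it was -0.82 (unadjusted p = 0.0017, adjusted p = 0.108 from limma), against 0.26 without it. The score is a mean over smooth muscle targets of the same pathway, so that fit cannot separate tissue from pathway.

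Flna, Zyx and Myh9 were divided by the same libraries. Flna encodes filamin A, which cross-links filaments into a network below the membrane. It was at 90.8, 93.7 and 117 FPKM in treated mice versus 120.5, 85.3 and 71.2 in control mice (log2 fold change 0.15, standard error 0.21, adjusted p = 0.699 from limma). Zyx encodes zyxin, a LIM protein of focal adhesions that recruits Ena/VASP proteins to strained filaments. It was at 154, 111 and 109.7 FPKM in treated mice versus 108, 140.1 and 136 in control mice (log2 fold change -0.05, standard error 0.17, adjusted p = 0.891 from limma). Control 1, cytarabine 2 and cytarabine 3 were the 3 highest for Flna and the 3 lowest for Zyx. Myh9 encodes the heavy chain of non-muscle myosin IIA, the main motor of cell contraction in blood cells. It was at 166, 149 and 149 FPKM in treated mice versus 135, 164 and 157 in control mice (log2 fold change 0.03, standard error 0.09, adjusted p = 0.881 from limma). Here again those 3 libraries were the lowest.

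Tpm4 encodes a tropomyosin that coats and stabilizes non-muscle filaments. It was at 214, 200.1 and 199 FPKM in treated mice versus 173, 218 and 190.5 in control mice (log2 fold change 0.08, standard error 0.10, adjusted p = 0.635 from limma). The groups overlapped, with both the highest and the lowest library among the controls.

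Of the 10 members, 3 had an unadjusted p under 0.05 (Lima1 and Wdr1 higher, Tagln2 lower), where 17.4% of all genes tested did. By limma none passed an adjusted p of 0.05, as did 0.0% of all genes (2038 had an unadjusted p under 0.05). By direction, 2 were higher, against 7.6% of all genes, and 1 was lower, against 9.81%. The groups did not overlap for 2 of the 10, against 23.8% of all genes, with 1 higher (10.9% of all genes) and 1 lower (12.9%). The median log2 fold change of the members was 0.05, and that of all genes tested was -0.0015. Summed over the 10 genes, the members made up 0.575%, 0.522% and 0.540% of the total FPKM with cytarabine and 0.540%, 0.580% and 0.539% in controls (exact permutation p = 0.6). Lima1 lost an unadjusted p under 0.05 without cytarabine 2, cytarabine 3, control 2 or control 3. Of the fits that left out 1 library, Wdr1 kept it only without cytarabine 2, and Tagln2 only without cytarabine 1 or control 3. With 1 library left out, the members with an unadjusted p under 0.05 numbered 2 without cytarabine 1 (34.8% of all genes), 1 without cytarabine 2 (11.1%), 0 without cytarabine 3 (10.9%), 1 without control 1 (18.3%), 0 without control 2 (10.7%) and 1 without control 3 (9.94%). The count was 1 with colon and heart covariates (4.75% of all genes), 1 with an equal sum per library (17.8%) and 0 with the replicate block (8.49%). It was 2 among genes of at least 5 FPKM (20.1%) and 3 with no filter (12.9%). With the smooth muscle covariate it was 2 (20.6%), Lima1 and, with a negative change, Vcl, but neither Wdr1 nor Tagln2. In fits of the 3 libraries of lower and of higher colon level it was 1 each (11.2% and 24.1% of all genes). Those fits set 1 cytarabine library against 2 controls and 2 against 1, with 1 residual degree of freedom, and assume that the lone library varies like the others. The other settings gave 3 members (16.6% to 17.6% of all genes), except 1 without the trend in eBayes (16.8%).

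**Figure D2:**
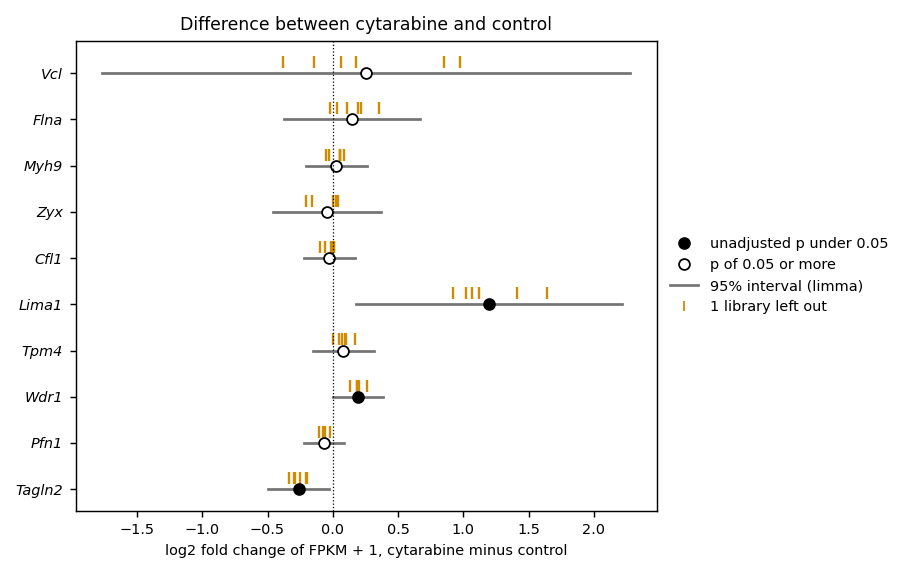
Log2 fold change of FPKM + 1 (cytarabine minus control) for each member, with the 95% interval from limma as a line and the 6 values obtained with 1 library left out as ticks. Lima1, Wdr1, Tagln2, Tpm4 and Pfn1 lie to one side of 0 in all 6 such fits, and for Vcl these values run from -0.38 to 0.97.

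The members differed in how steady they were. The coefficient of variation over the 6 libraries was 4.46% for Pfn1, 6.04% for Cfl1, 7.58% for Myh9, 8.20% for Tpm4, 9.67% for Wdr1 and 12.6% for Tagln2, all below the median of 13.6% over the genes tested. It was 15.3% for Zyx, 19.7% for Flna, 64.7% for Lima1 and 73.6% for Vcl. Per length, Pfn1 and Cfl1 were at the highest levels, followed by Tagln2, Tpm4, Myh9, Wdr1, Zyx, Flna, Lima1 and Vcl in the mean over the 6 libraries. Within that order the neighbours Myh9 and Wdr1, Wdr1 and Zyx, Zyx and Flna, and Lima1 and Vcl overlapped in their range over the libraries, and Tpm4 lay above Myh9 in every library. Those of Pfn1 and Cfl1 touched as well, since the lowest Pfn1 value was below the highest Cfl1 value.

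Of the 10 members, 6 did not overlap between the libraries of higher and lower colon level, against 34.4% of all genes tested. Vcl, Flna and Lima1 were higher in those of higher level, and Myh9, Zyx and Cfl1 were lower. Smooth muscle genes moved with the first 3: Myh11, the myosin heavy chain of smooth muscle, was at 42.7 to 87.7 FPKM in those libraries and at 0.474 to 5.39 FPKM in the others. All 12 smooth muscle genes were above 0 in each library, except Lmod1, which was listed at 0 in control 3. The log2 fold change was positive for all 12, with a median of 1.63, but none had an unadjusted p under 0.05. Those with the smallest p were Actg2 (log2 fold change 2.33, adjusted p = 0.376 from limma), Synm (1.79, adjusted p = 0.384), Myh11 (2.83, adjusted p = 0.39) and Mylk (1.96, adjusted p = 0.4).

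**Figure D3:**
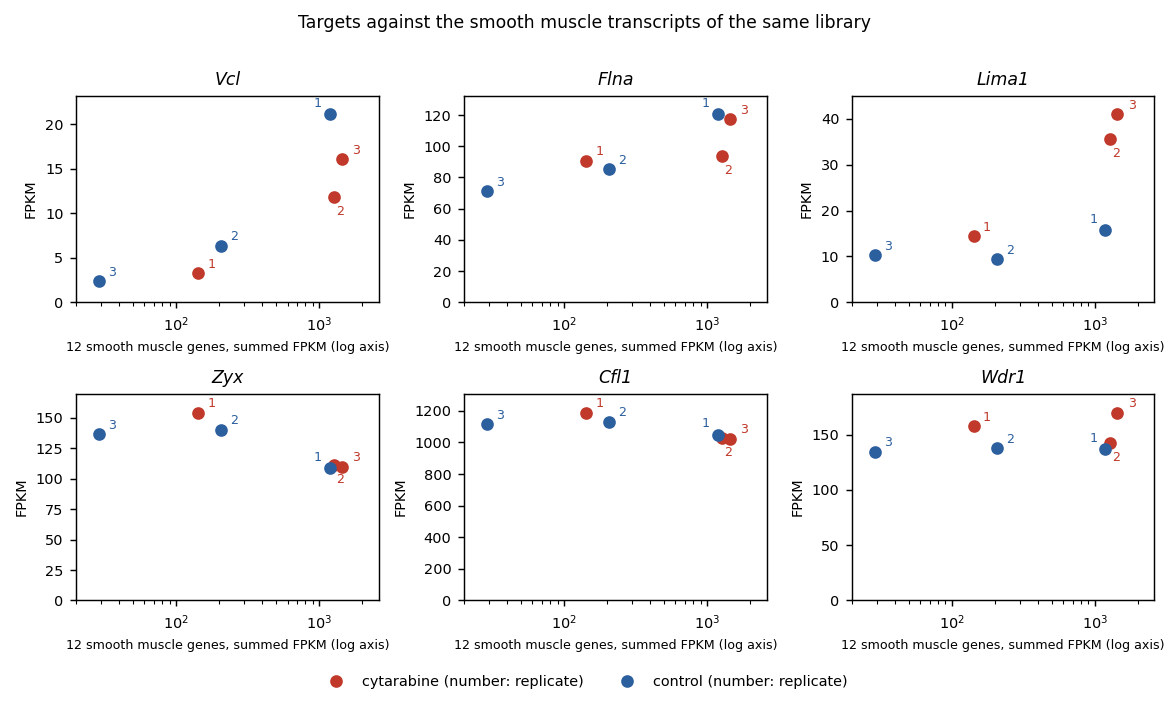
FPKM of 6 members (vertical axis, from 0) against the summed FPKM of 12 smooth muscle genes in the same library (log axis), with the replicate number beside each point. Vcl and Flna are higher at the right, Zyx and Cfl1 lower, and the points of control 1 and cytarabine 2 and 3 for Lima1 lie apart, at 15.8, 35.5 and 41.0 FPKM.

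Markers of other tissues and cell types were summed in the same way. The 12 heart genes summed to 8.25 to 825 FPKM in treated mice versus 63.6 to 3153 FPKM in control mice. Listed at 0 were Myl3, Myl7 and Ryr2 in cytarabine 1, Myl3 in cytarabine 2 and Myl7 in control 3. Macrophage markers (7 of 8 analysed) summed to 15.8 to 62.4 FPKM in treated mice versus 13.9 to 155 FPKM in control mice. The 7 fibroblast markers summed to 36.0, 212 and 316 FPKM in treated mice versus 647, 429 and 57.9 in control mice. The 7 endothelial markers summed to 22.2 to 32.1 FPKM in treated mice versus 19.4 to 30.0 FPKM in control mice. Most of that sum was Pecam1, at 15.7 to 23.3 FPKM over the 6 libraries. Emcn ran from 0.063 to 3.33 FPKM and Egfl7 from 0.271 to 3.12 FPKM. Cdh5, Kdr, Tek and Vwf reached at most 1.09 FPKM, and Cdh5 was listed at 0 in cytarabine 1. The 9 markers of megakaryocytes and platelets, cells rich in Flna, Myh9, Vcl and Zyx, summed to at most 8.29 FPKM in treated mice and to at most 4.20 FPKM in control mice. Treml1 was listed at 0 in all 6 libraries, and up to 2 further markers were at 0 in each control library. The 10 neutrophil genes summed to 1586, 205 and 194 FPKM in treated mice versus 1454, 2064 and 2024 in control mice, and cytarabine 2 and 3, with the least, were also lowest for Tagln2 and highest for Lima1. Of the 10, 7 were lower with cytarabine at an unadjusted p under 0.05 from limma (9.81% of all genes). The groups did not overlap for 6, all lower (12.9% of all genes). In cytarabine 1 Elane and Mpo were at 81.7 and 71.1 FPKM, against at most 9.94 and 12.3 FPKM in controls. Retnlg was at 12.4 FPKM in cytarabine 1 and at 48.3 to 68.9 FPKM in controls. The part of these tissue and cell type markers in the differences of Vcl, Flna, Lima1 and Tagln2 was not tested.

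In 5 of 6 protein families the non-muscle member named here held most of the family's FPKM in every library. Pfn1 held 98.0% to 98.5% of profilin FPKM beside Pfn2, and Myh9 held 91.7% to 99.8% beside Myh10 and Myh14. Zyx held 89.2% to 94.9% beside Lpp and Trip6. Cfl1 held 80.4%, 69.4% and 67.0% with cytarabine and 76.2%, 85.2% and 85.3% in controls. The rest was almost all destrin (Dstn), the related depolymerizing factor, which was at 284, 443 and 490 FPKM in treated mice versus 314, 191 and 189 in control mice (log2 fold change 0.81, unadjusted p = 0.030, adjusted p = 0.241 from limma). Tagln2 held 95.1%, 56.1% and 56.6% with cytarabine and 68.8%, 92.6% and 98.8% in controls, as the smooth muscle gene Tagln ran from 4.77 to 297 FPKM. Tpm4 was the exception, with 11.4% to 32.3%. The rest was Tpm1, Tpm2 and Tpm3, and Tpm1 alone ran from 118 FPKM in control 3 to 972 FPKM in control 1. With 3 mice against 3 none of the 6 shares could pass 0.05 (exact permutation p from 0.2 for Cfl1 to 0.8 for Tpm4, and at least 0.6 after adjustment over the 6 families). Vcl, Flna, Lima1 and Wdr1 were not compared with relatives in this way.

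**Figure D4:**
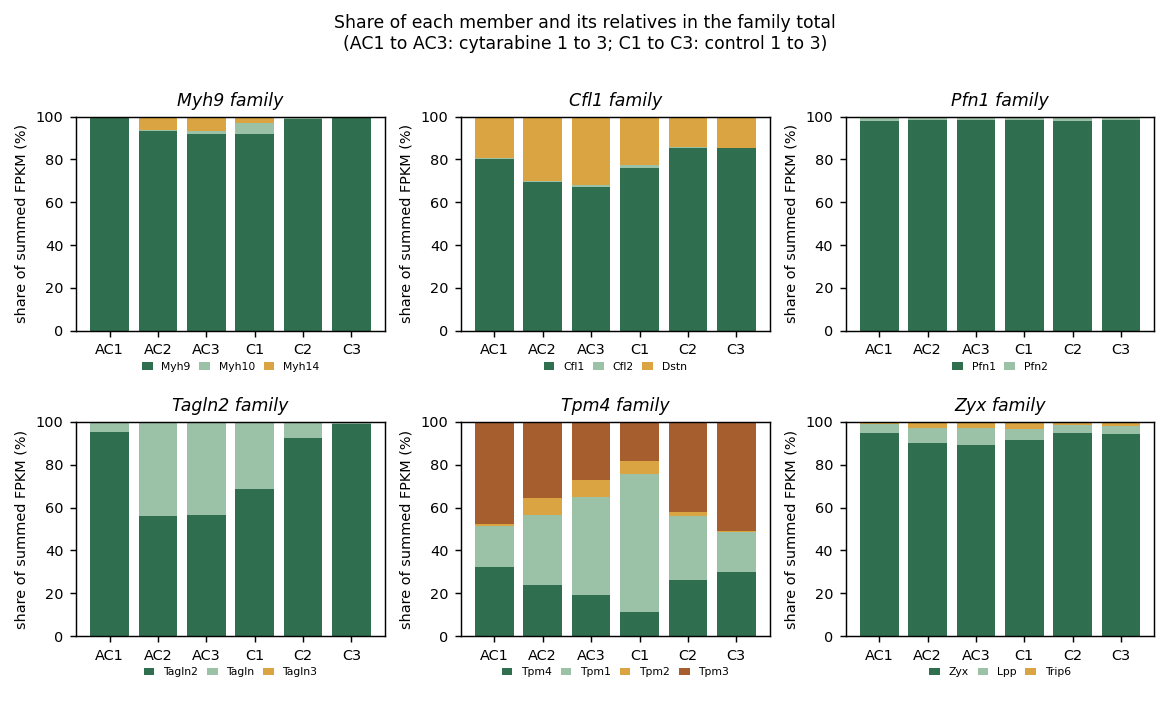
Share of the summed family FPKM (vertical axis, 0 to 100%) held by each member and its relatives in the 6 libraries (AC, cytarabine; C, control). The Pfn1 share stays between 98.0% and 98.5%, whereas that of Tagln2 is as low as 56.1% in cytarabine 2.

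Reads could be shared with near-identical copies for 3 of the members. Of the 75-base windows of the longest transcript, as long as a read, 9.44% in Tpm4 were also found in Gm7809, 3.60% in Cfl1 in Gm6180 and 0.652% in Myh9 in Myh10. For Vcl, Flna, Zyx, Lima1, Wdr1, Pfn1 and Tagln2 no window was found in the transcripts of another gene.

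A further 30 non-muscle cytoskeletal genes of the pathway were all tested. Of these, 4 had an unadjusted p under 0.05 (13.3%, against 17.4% of all genes), and the median log2 fold change of the list was 0.05. All 4 were higher with cytarabine (7.6% of all genes) and 0 lower (9.81% of all genes). These were Myl12b, a regulatory light chain of non-muscle myosin (log2 fold change 0.76, adjusted p = 0.131 from limma), the LIM-domain coregulator Fhl2 (0.43, adjusted p = 0.184), the zyxin relative Lpp (0.46, adjusted p = 0.224) and Dstn. Myl12b was at 353, 461 and 436 FPKM in treated mice versus 253, 246 and 235 in control mice, without overlap. Of its 75-base windows, 3.53% were shared with Myl12a or Gm2805, and 26.9% of those of Myl12a were shared with Myl12b. Myl12a was at 375, 337 and 334 FPKM in treated mice versus 260.4, 345 and 319 in control mice. Fhl2 was at 43.5, 36.5 and 36.0 FPKM in treated mice versus 31.3, 29.1 and 24.9 in control mice. On the negative side the smallest p values were those of the membrane linker Msn (log2 fold change -0.13, adjusted p = 0.446 from limma), Itgb1 (-0.25, adjusted p = 0.659), Tpm3 (-0.08, adjusted p = 0.682) and the vinculin partner Tln1 (-0.10, adjusted p = 0.708). With the smooth muscle score as a covariate, 14 of the 30 had an unadjusted p under 0.05, against 20.6% of all genes in that fit. As for Vcl, the score is built from targets of the same pathway, so that fit cannot separate tissue from pathway. The directions of the 14 are not given here. Cytoplasmic actin itself, Actb, was at 3359.9 to 4728 FPKM over the 6 libraries (log2 fold change 0.05, adjusted p = 0.862 from limma).

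Proteins that act on the members or bind them formed a list of 24 genes, some of which are also in the other lists. Of these, 3 were higher at an unadjusted p under 0.05, Myl12b, the cofilin kinase gene Limk2 (log2 fold change 0.40, adjusted p = 0.192 from limma) and Ppp1r12a, the targeting subunit of myosin phosphatase (0.22, adjusted p = 0.277). The leukocyte integrin chain Itgb2 was lower (log2 fold change -0.36, adjusted p = 0.279 from limma). Together the 4 are 16.7% of the list, close to the 17.4% of all genes. Limk2 was at 15.1, 19.5 and 19.2 FPKM in treated mice versus 13.9, 12.8 and 13.2 in control mice. Among genes with a positive difference the next smallest p was that of the adhesion scaffold paxillin (Pxn, log2 fold change 0.27, adjusted p = 0.29 from limma). Among those with a negative difference Itgb2 was followed by Parvg (log2 fold change -0.38, adjusted p = 0.295 from limma), Coro1a (-0.26, adjusted p = 0.382) and Limk1 (-0.14, adjusted p = 0.628).

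Of the regulators above these genes, 11 of 12 passed the filter, and 1 had an unadjusted p under 0.05 (9.09%, against 17.4% of all genes). It was Rhoa, the GTPase that drives actin polymerization toward MRTF release, at 208, 194 and 205 FPKM in treated mice versus 234, 224 and 219 in control mice (log2 fold change -0.16, standard error 0.06, adjusted p = 0.251 from limma). For its relative Rhoc the levels ran from 8.05 to 71.3 FPKM, high in the 3 libraries of higher colon level. Srf was at 54.1, 39.2 and 38.1 FPKM in treated mice versus 41.8, 45.3 and 49.0 in control mice. The MRTFA gene, listed as Mkl1, was at 20.5, 17.3 and 15.9 against 17.6, 23.7 and 25.7 FPKM, and the MRTFB gene, Mkl2, at 2.63, 3.61 and 4.42 against 3.04, 2.33 and 2.64 FPKM. The groups overlapped for all 3. The log2 fold changes of Elk1, Elk3, Elk4, Rhob, Rock1 and Rock2 lay between -0.21 and 0.16, with adjusted p values of at least 0.369 from limma. Myocd, the muscle-restricted coactivator, was at most 0.44 FPKM and was not tested.

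**Figure D5:**
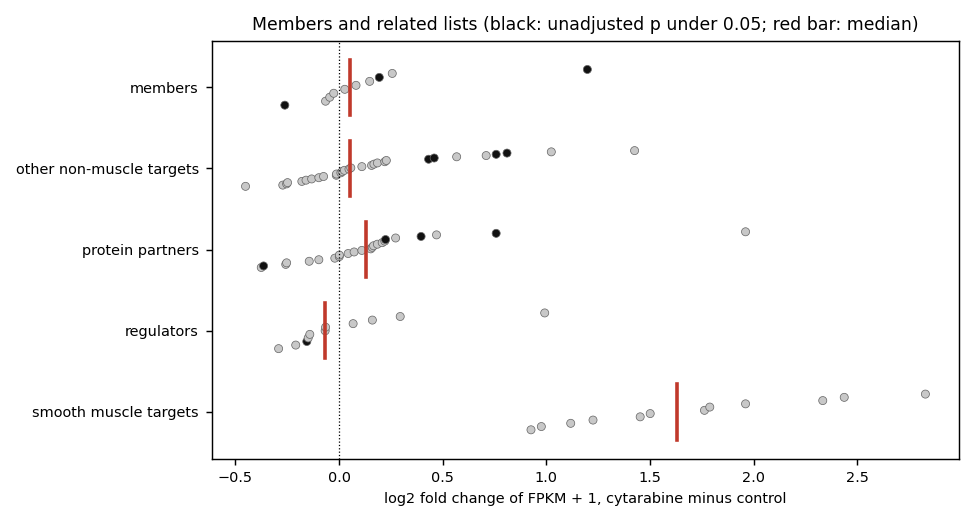
Log2 fold change of FPKM + 1 (cytarabine minus control) of each gene in 5 lists, with genes at an unadjusted p under 0.05 in black and the median of each list as a red bar. The medians are 0.05 for the members and for the other non-muscle targets, 0.13 for the partners, -0.07 for the regulators and 1.63 for the smooth muscle targets.

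The mean profile of the 10 members over the libraries, as the deviation of log2(FPKM + 1) from each gene's own mean, was -0.06, 0.09 and 0.20 in cytarabine 1, 2 and 3 and 0.09, -0.07 and -0.25 in control 1, 2 and 3. Vcl and Lima1 carried this profile, with deviations of -1.40 and -0.76 in control 3 and of 0.93 and 1.15 in cytarabine 3. The mean of the other 8 members, taken after seeing the data, was 0.10, -0.08 and -0.01 in the cytarabine libraries and -0.03, 0.06 and -0.04 in the control libraries, with the opposite sign in 5 of the 6. Among 6979 other genes averaging 10 FPKM or more, the closest profiles were those of Rtn4, Ghitm, Rnf11, Srek1ip1 and Vamp4, with root mean square differences of 0.038 to 0.056 on the log2 scale over the 6 libraries. Rtn4, a reticulon of the endoplasmic reticulum, was at 29.1, 30.0 and 32.6 FPKM in treated mice versus 31.8, 27.5 and 24.7 in control mice.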

How the data were processed

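RNA-Seq libraries of 3 cytarabine-treated and 3 control mice were analysed, grouped by the sample records. Per the methods, the authors aligned single-end reads of 75 bases against mm10 with TopHat2 (2.0.13), Bowtie2 (2.2.3) and SAMtools (0.1.19), and deposited FPKM per gene from Cufflinks (2.2.1). The annotation and options are not given in the sources used here. FPKM are not counts, so no count test was run. Genes averaging 1 FPKM or more were tested on log2(FPKM + 1), which understates changes of low genes, with limma 3.58.1 in R 4.3.3 (trend, two-sided, Benjamini-Hochberg adjustment over 11703 genes), after a test on simulated data. Single shares and ratios were compared by exact permutation, which cannot go below p = 0.1. Intervals are 95%. Depth was inferred from low FPKM of 3802 genes with 1 transcript, assuming 200-base fragments. Colon level is the summed FPKM of the colon markers, divided into 3 higher and 3 lower libraries. Positions and transcripts came from GENCODE M21 (GRCm38), promoters from RefSeq. All members and regulators, the listed genes with the smallest p (up to 4 a direction) and the 5 most alike profiles are named. Actn1, Actb, Myl12a and Rtn4 with its values were named after values were seen. The members and lists were chosen with earlier results of these data known. The marker genes Muc2 and Adgre1 were not analysed here, and the family share planned for Flna is not reported here. Same-numbered libraries are different mice. Alternatives were another pseudocount, filters, scalings, eBayes settings, colon and heart or smooth muscle covariates, the replicate block and leaving out each library.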

Additional observations from a re-analysis of the deposited data

How the results depend on the processing

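Of 190 values of the members' log2 fold changes under the alternatives, 134 kept their direction and side of an unadjusted p of 0.05, 28 lost the call and 28 changed sign. Lima1, Wdr1 and Tpm4 kept their direction throughout. The count of 3 members was 1 with FPKM rescaled to an equal sum, without the trend in eBayes and with colon and heart covariates, and ranged from 0 to 2 when 1 library was left out. It was 1 in fits of the 3 libraries of lower or of higher colon level alone, which were chosen after seeing the data, set 1 library against 2, and take the lone mouse to vary like the others. The median of the members was 0.21 with colon and heart covariates, -0.0024 within the libraries of higher colon level (in that fit and as a plain difference), and from -0.026 to 0.096 leaving out 1 library.

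The 4 other non-muscle targets (of 30) became 14 with the smooth muscle covariate, where 20.6% of all genes had an unadjusted p under 0.05. They became 13 in the fit of the libraries of higher colon level (control 1 alone against 2), with 24.1% of all genes. Leaving out 1 library, they numbered 2 to 7. The 7 came without cytarabine 1, where the share of all genes was larger, 34.8%. There were 6 without control 1 (18.3% of all genes), and 2 in the other such fits (9.94% to 11.1%). The 2038 genes at an unadjusted p under 0.05 became 556 with colon and heart covariates, 1203 in the fit of the libraries of lower colon level, and 1176 (without control 3) to 4111 (without cytarabine 1). The 0 genes at an adjusted p under 0.05 from limma became 1 with a pseudocount of 0.1, 2 without the trend, 1 with the robust trend, 1 with the smooth muscle covariate, 14 in the fit of either set of libraries (a lone mouse in 1 group), and 0 to 6 leaving out 1 library.

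With the replicate number as a block, 0 members (against 3), 2 other targets (against 4) and 994 genes (against 2038) had an unadjusted p under 0.05. Lima1, Wdr1 and Tagln2 then had unadjusted p values of 0.0753, 0.106 and 0.0953 from limma. Same-numbered libraries are different mice, and their deviations from the group means correlated at -0.709, -0.247 and -0.594. Those correlations cannot show whether same-numbered libraries shared a processing step.

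Signs changed as follows. With the smooth muscle covariate, Vcl was at -0.82, Flna at -0.087, Zyx at 0.16 and Cfl1 at 0.048. With colon and heart covariates, Vcl was at -0.47, Zyx at 0.29, Cfl1 at 0.099 and Tagln2 at 0.040. With quantile normalization, Cfl1 was at 0.026 and Pfn1 at 0.020. In the fit of lower colon level, Vcl was at -0.22, Zyx at 0.16, Cfl1 at 0.082 and Pfn1 at 0.023, and in that of higher level Vcl was at -0.58, Flna at -0.20 and Zyx at 0.027. Leaving out 1 library, the range was -0.38 to 0.97 for Vcl, -0.020 to 0.35 for Flna, -0.055 to 0.084 for Myh9, -0.20 to 0.039 for Zyx and -0.096 to 0.011 for Cfl1. The cause was not tested.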
